A study of Saccharomyces cerevisiae with 9 samples.

Results

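Micrococcal nuclease sequencing (MNase-seq) measured where nucleosomes lie along the genome of Saccharomyces cerevisiae, and the nucleosome calls of a strain lacking IOC3 (ioc3Δ) were compared here with those of WT over the whole genome. The members are all calls that the authors paired between both strains. The tables held 53840 rows, of which 1911 pairs repeated an earlier one and 12 lay in the ribosomal RNA locus, and the other 51917 pairs were used. Of these, 90.6% lay in exactly 1 coding region, so the comparison is mostly one of genes. With the second comparison of the series, of WT against cells with a truncated Ioc3, 104416 paired calls were analysed in all, and that comparison is not described here.

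Both strains were labelled as BY4742 and as carrying a FLAG tag, and both were grown in rich medium (YPD). By their labels WT had the intact ISW1a complex and ioc3Δ differed by the loss of Ioc3. A further difference between the strains, at LEU2, is given below. The FLAG label stands beside ioc3Δ too, and which protein carries the tag there is not given in the sources used here. Of the 9 samples of the series, 3 were WT and 3 were ioc3Δ, grown as separate cultures, and the authors merged the 3 libraries of a strain before calling nucleosomes. One value per strain was therefore available for every call, there are no replicates, and all values below are the authors' merged values or differences of them. No test over samples was possible, and every difference is a description of these merged libraries.

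The nucleosome wraps DNA around a histone octamer, and the midpoint of the wrapped DNA is called the dyad. ISWI remodelers use ATP to slide nucleosomes along DNA and are known for placing them at regular distances in arrays that start near the promoter. In budding yeast the ISWI enzyme Isw1 forms ISW1a with Ioc3 and ISW1b with Ioc2 and Ioc4. Ioc3 contacts the DNA between nucleosomes.

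Each call has a dyad (its peak position), a dyad SD (the spread of fragment midpoints around it, called fuzziness when large) and an occupancy (the fragment midpoints in the call, relative to mean coverage). A call covers 147 bp, and midpoints spread evenly over that window would have an SD of 42.4 bp. The occupancies were whole multiples of their smallest value, with a largest deviation of 0.000296 of a unit, and 1 unit was taken as 1 fragment. The median call then held 422 fragments in WT and 252 in ioc3Δ, and 89.8% of the calls held 100 or more in both. Counting error alone gave a median SE of 2.22 bp for the change of a call's mean dyad and a median SD of 0.12 for its log2 occupancy ratio. Fragments can be copies of one molecule, so these errors cover counting only. The dyad changes below are those of the peak position, whose counting error was not measured.

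The IOC3 coding region served as a check of the labels. Over its 7 paired calls the occupancies added up to 486 in WT, and the 2.79 left in ioc3Δ was 0.574% of that. Each of the 7 calls held 1 to 4 fragments in ioc3Δ. The labelled background did not pass the same kind of check. BY4742 is known to lack the coding regions of LEU2, URA3 and LYS2, genes of leucine, uracil and lysine synthesis, yet all were covered in both strains. LEU2 had a median WT occupancy of 86.8 over 6 calls, URA3 60.7 over 4 calls and LYS2 58.4 over 21 calls, against 58.3 over all WT calls. In ioc3Δ the medians were 307, 84.2 and 61.2. The libraries thus go against the labelled background at these 3 genes, and each strain is called by its IOC3 genotype only. The 6 LEU2 calls added up to 741 in WT and 2564 in ioc3Δ, so the strains also differed from each other at LEU2. What makes this difference was not tested.

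The sequences below are the 147 bp of 6 calls that mark the ends of what was measured. The first 4 were chosen among calls in the sharpest decile of dyad SDs in both strains with 100 or more fragments, as those whose dyad moved farthest and the narrowest whose dyad stayed in place. The last pair, chosen after the values were seen, are the calls with the lowest and the highest GC content in a coding region under the same limits. Sequence is the plus strand of sacCer3, read from the RefSeq copy of the same assembly (R64), and capitals mark runs of 5 or more A or of 5 or more T.
call 22 bp before IOC3 (chrVI:169827-169973): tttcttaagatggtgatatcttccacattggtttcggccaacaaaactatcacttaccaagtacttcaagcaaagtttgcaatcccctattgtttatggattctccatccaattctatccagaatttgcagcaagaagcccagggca
call in ENT2 (chrXII:554558-554704): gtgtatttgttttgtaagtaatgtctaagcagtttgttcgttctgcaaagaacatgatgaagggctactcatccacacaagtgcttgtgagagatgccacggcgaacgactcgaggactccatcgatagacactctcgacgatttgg
call in TAF11 (chrXIII:241965-242111): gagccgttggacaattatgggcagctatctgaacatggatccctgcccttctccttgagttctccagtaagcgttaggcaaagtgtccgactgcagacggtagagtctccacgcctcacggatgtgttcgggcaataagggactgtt
call 695 bp from PAU19 (chrXIII:923637-923783): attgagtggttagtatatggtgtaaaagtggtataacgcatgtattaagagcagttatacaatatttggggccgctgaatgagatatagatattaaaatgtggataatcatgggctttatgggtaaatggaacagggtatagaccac
call in YNL050C (chrXIV:534887-535033): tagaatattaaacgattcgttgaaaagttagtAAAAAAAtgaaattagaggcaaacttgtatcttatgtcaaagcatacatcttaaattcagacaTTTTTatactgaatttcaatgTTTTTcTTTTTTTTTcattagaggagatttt
call in SRX1 (chrXI:278354-278500): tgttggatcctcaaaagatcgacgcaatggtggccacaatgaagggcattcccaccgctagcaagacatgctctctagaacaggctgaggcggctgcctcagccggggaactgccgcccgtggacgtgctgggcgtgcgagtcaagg

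The farthest move among the sharp calls bordered the deletion itself, and 52 of the 147 bp of this WT call lie in the deleted coding region. Fragments from that stretch cannot occur in ioc3Δ, so the values of this call are set in part by the deletion. The dyad 22 bp before the IOC3 start codon lay at 169900 of chromosome VI in WT and at 169837 in ioc3Δ, 63 bp away from the deleted gene, and its occupancy fell from 179 to 46.8. In ENT2, which encodes an epsin of the endocytic machinery, the dyad 53 bp after the start codon moved from 554631 to 554654, that is 23 bp downstream. Its dyad SD went from 15.0 to 17.8 bp. The call in TAF11, a subunit of TFIID, had its dyad at 242038 in both strains, with dyad SDs of 8.80 and 8.46 bp. The call 695 bp from PAU19 stayed at 923710, with SDs of 8.15 and 9.17 bp. It is the last paired call before the end of chromosome XIII (924431 bp), and many calls near chromosome ends lie in repeated sequence. None of these 4 calls held a run of 5 A or T, which 51.9% of all calls held on either strand, since a run of T is a run of A on the other strand. In the AT-rich call at the start of YNL050C (23.8% GC) the occupancy was 162 in WT and 64.9 in ioc3Δ. In the GC-rich call in SRX1, the sulfiredoxin gene (60.5% GC), it was 3668 and 6984. Both dyads stayed within 1 bp.

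Over all paired calls the dyad in ioc3Δ lay a median of 5 bp from that in WT, with an interquartile range of 2 to 11 bp. Dyads were identical in 7.07% of the calls. A change of 10 bp or more was found in 14729 of 51917 calls (28.4%), of 20 bp or more in 14.0% and of 40 bp or more in 5.58%. Calls were paired only if they overlapped by at least 73 bp, and the largest change was 72 bp. Nucleosomes that moved farther or were lost are not in these shares. Signed on the chromosome, the changes were balanced, with 46.5% of the dyads to the right, 46.4% to the left and a median of 0. The rule of the methods, an unequal-variance test on dyad, dyad SD and occupancy, was rebuilt here with occupancy taken as the number of observations. The calls that pass are thus not the authors' own list. At p below 0.01 in this rebuilt test 10906 of 51785 calls passed (21.1%), and their median change was 24 bp. That share was 47.1% when fragments replaced occupancy as the number of observations, so it is a count under a rule and not an estimate of how many nucleosomes moved.

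Read along the gene, the changes had an order. Of the paired calls, 47033 lay in exactly 1 coding region. In the first 165 bp after the start codon the median change was 2 bp in the downstream direction (interquartile range 0 to 5, 5603 calls). From 165 to 330 bp the median was 4 bp (0 to 8, 5398 calls), and 73.7% of the calls were downstream against 19.6% upstream. The median fell to 3 bp, 2 bp and 0 in the next 3 bins of 165 bp. Beyond 825 bp it was negative, and between 1155 and 2145 bp it was −2 bp, with 57.1 to 60.9% of the calls upstream.

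Near the stop codon of genes over 1000 bp the direction was upstream. In the last 165 bp the median was −3 bp (interquartile range −8 to 1, 3179 calls), with 66.0% of the calls upstream and 26.6% downstream. The median was −3 bp in the next 2 bins, −2 bp at 495 to 660 bp, 0 at 660 to 825 bp and 1 bp or more farther from the stop codon. In the last 165 bp the median was −3 bp where the next gene is transcribed in the same direction (tandem) and −2 bp where it faces the gene (convergent). Dyads at both ends of genes thus lay closer to the middle of the gene in ioc3Δ. The values are small beside the spread of single calls: the quartiles of most bins lie on both sides of 0.

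**Figure D1:**
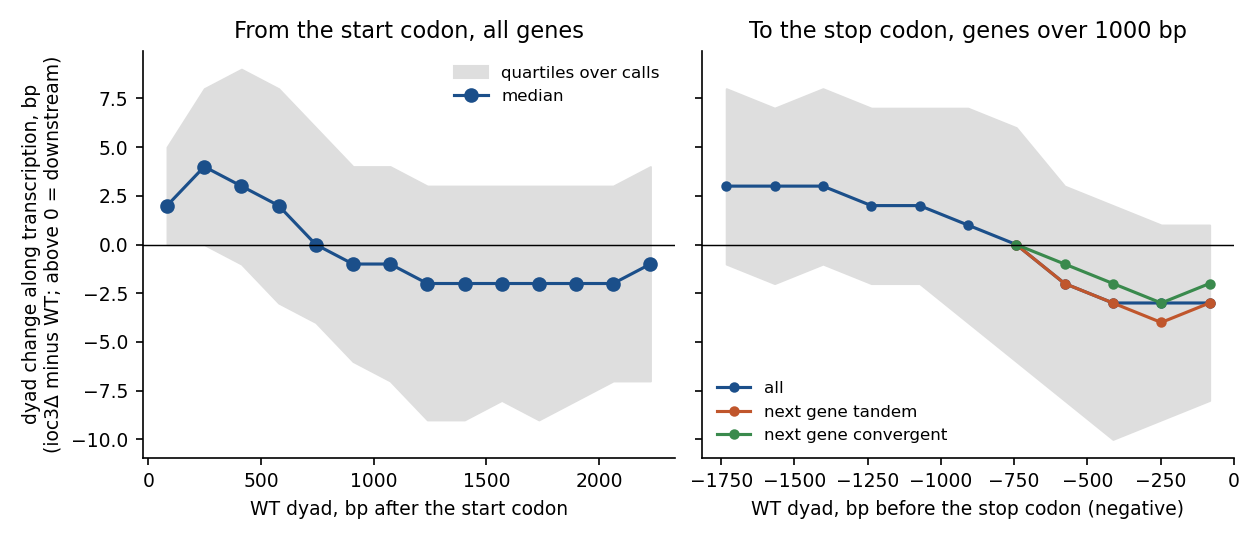
Median dyad change along transcription (y axis, bp, above 0 is downstream in ioc3Δ) in bins of 165 bp from the start codon (left, all genes) and before the stop codon (right, genes over 1000 bp). Grey areas are the quartiles over calls; the medians run from 4 bp near the start codon to −3 bp before the stop codon and reach 0 in the bin at 660 to 825 bp on each side.

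In genes over 560 bp the direction turned in or next to the 3rd of 5 equal parts of the coding region. In genes of 1000 to 1500 bp the medians over 5 successive equal parts of the coding region were 3, 4, 0, −2 and −3 bp. In genes of 2000 to 3000 bp they were 5, 3, 0, −2 and −3 bp. The turn came later in genes of 560 to 1000 bp (2, 3, 1, −1 and −2 bp). It came earlier in genes of 1500 to 2000 bp (4, 4, −1, −3 and −3 bp). In the 239 genes over 4000 bp they were 4, 1, 0, 0 and −1 bp. In genes up to 560 bp the medians were 1, 1, 1, 1 and 0 bp. There 51.2% of the calls were downstream and 35.6% upstream in the first part, and 40.2% and 48.3% in the last. Calls past the rule of the methods followed the same order: of those in the first 660 bp, 3804 were downstream and 777 upstream, and of those farther in, 2235 were downstream and 3471 upstream.

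Neighbouring nucleosomes moved together over a short range. Where both calls of an adjacent pair had moved, 71.8% moved in the same direction on the chromosome (37054 pairs up to 250 bp apart in WT). Pearson's r of the signed changes was 0.41 for adjacent calls (42401 pairs), 0.18 for calls 2 apart, 0.09 for 3 apart and 0.00 for 5 apart. Adjacent calls share both libraries, and the smallest distance between called dyads was 148 bp, so a call that moves can displace its neighbour in the calling. Among calls with all neighbours more than 150 bp away in both strains r was 0.36 for adjacent calls (21209 pairs). Of the 14729 calls with a change of 10 bp or more, 6596 stood alone and 3737 (25.4%) lay in 1066 runs of at least 3 consecutive calls with the same direction.

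The longest runs, chosen after the values were seen, show what a moved array looks like. In CDC27, a subunit of the anaphase-promoting complex, 9 consecutive calls lay 15 to 71 bp farther toward its start codon, with a median of 56 bp, although 1 of them held as few as 12 fragments. In HXT13, a member of the hexose transporter family, 7 consecutive calls lay 14 to 57 bp farther upstream, and each held at least 239 fragments. Over the whole gene all 10 HXT13 calls lay upstream. From the first to the last on the chromosome, the 10 dyads were displaced by 7, 25, 33, 14, 23, 40, 57, 34, 2 and 7 bp, so the largest displacement was inside the gene. In CHS2, which encodes a chitin synthase, 7 calls lay 12 to 37 bp downstream. In MUP1, the methionine permease gene, 7 calls lay 15 to 48 bp upstream. HXT13 has close relatives in the genome, and reads from them could be shared.

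Spacing between neighbouring dyads changed little in its middle and more in its spread. For 42401 pairs of neighbours up to 250 bp apart in WT, the median spacing was 168 bp in WT and 169 bp in ioc3Δ. The interquartile range widened from 159–179 bp to 155–183 bp. The limit of 250 bp was set on WT only, and spacings reached 369 bp in ioc3Δ. Calls also held fewer fragments in ioc3Δ (median 252 against 422), and the part of counting error in the wider spread was not tested. The change had a median of 0 (interquartile range −5 to 6 bp) and 45.9% of the spacings were longer, 42.8% shorter. A change of 10 bp or more was found in 14185 pairs (33.5%). The SD of the spacings was 18.7 bp in WT and 21.4 bp in ioc3Δ over the 41858 pairs up to 250 bp apart in both. The smallest spacing of 148 bp, which is the limit of the calling, was reached by 10.9% of the pairs in WT and by 16.4% in ioc3Δ.

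The direction of the spacing change followed the place in the gene. Between the first pair of calls, with their midpoint within 165 bp of the start codon, spacing lengthened by a median of 2 bp, with 59.2% of 2897 pairs longer and 29.2% shorter. At 495 to 660 bp the median was −1 bp, with 36.0% longer and 52.0% shorter (3641 pairs). For pairs not both inside 1 coding region the median was 1 bp, and 54.8% of 5634 pairs were longer. Sorted by the mean spacing of both strains, spacings of 149 to 160 bp changed in ioc3Δ by a median of −4 bp and those of 181 to 200 bp by 5 bp. Sorted by WT spacing alone the medians were between −1 and 1 bp, so this pattern depends on which strain sorts the pairs.

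**Figure D2:**
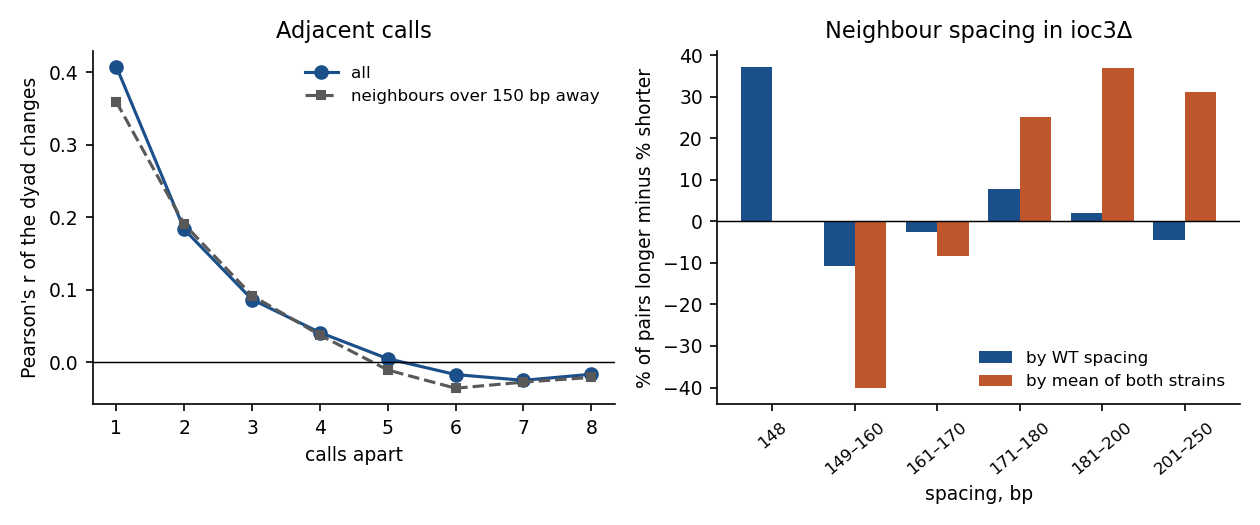
Left, Pearson's r of signed dyad changes (y axis) against the number of calls apart (x axis), for all calls and for calls whose neighbours lie over 150 bp away; r falls from 0.41 to about 0 at 5 calls. Right, percent of neighbour pairs longer minus percent shorter in ioc3Δ (y axis) by spacing class in bp (x axis), sorted by WT spacing or by the mean of both strains; pairs at 148 bp in WT could only lengthen, and with the mean, 28.2% of pairs of 149 to 160 bp were longer and 68.3% shorter.

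Nucleosomes were less sharply placed in ioc3Δ. The median dyad SD was 26.0 bp in WT and 29.1 bp in ioc3Δ, and the median change per call was 2.41 bp (interquartile range 0.248 to 4.76). The SD was wider in 77.3% of the calls. It was wider by 5 bp or more in 11937 calls (23.0%) and narrower by 5 bp or more in 1290 (2.48%). Along coding regions the median widening was 2.16 bp in the first 165 bp, 3.76 bp at 330 to 495 bp, 3.78 bp at 495 to 660 bp and 0.883 bp at 1980 to 2145 bp. WT calls were already fuzzy there: the WT dyad SD rose from 18.5 bp in the first bin to 33.0 bp at 1980 to 2145 bp.

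How much a call moved went with its WT fuzziness, its WT occupancy and its GC content. In the sharpest decile of WT dyad SDs the median dyad change was 2 bp and 4.91% of the calls moved by 10 bp or more. In the fuzziest decile it was 9 bp and 48.3%. The difference of 7 bp between these medians was 4 bp among calls in the upper 75% of occupancy, and 4 bp among pairs up to 37 bp apart. By WT occupancy, the median was 7 bp in the lowest decile and 3 bp in the highest, with 40.4% and 14.9% of the calls moved by 10 bp or more. By GC content, it was 6 bp in the lowest decile and 3 bp in the highest, with 36.3% and 17.8% moved by that much. GC content rose with WT occupancy (Spearman's rho 0.55), and their parts were not separated. Low calls hold fewer fragments and fuzzy calls have flatter peaks, so the counting error of a dyad is larger in both, and its part in these differences was not tested.

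Widening was largest for calls of intermediate sharpness. The median change of the dyad SD was 2.55 bp in the sharpest WT decile, 3.79 bp in the 4th and −0.90 bp in the fuzziest, where 37.6% of the calls were wider. With deciles of the mean SD of both strains it was 1.89, 3.54 and 0.746 bp, so the narrowing of the fuzziest calls was seen only with WT deciles while the maximum stayed in the 4th. In the highest decile of WT occupancy the SD widened by 0.889 bp, against 2.27 to 2.92 bp in the other deciles. That decile includes most calls of repeats: 17.5% of its calls lay in Ty elements and 9.32% in telomeric regions. Without these the highest decile widened by 1.10 bp (3799 calls). By GC content the SD widened by 3.30 bp in the lowest decile and by 0.974 bp in the highest.

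**Figure D3:**
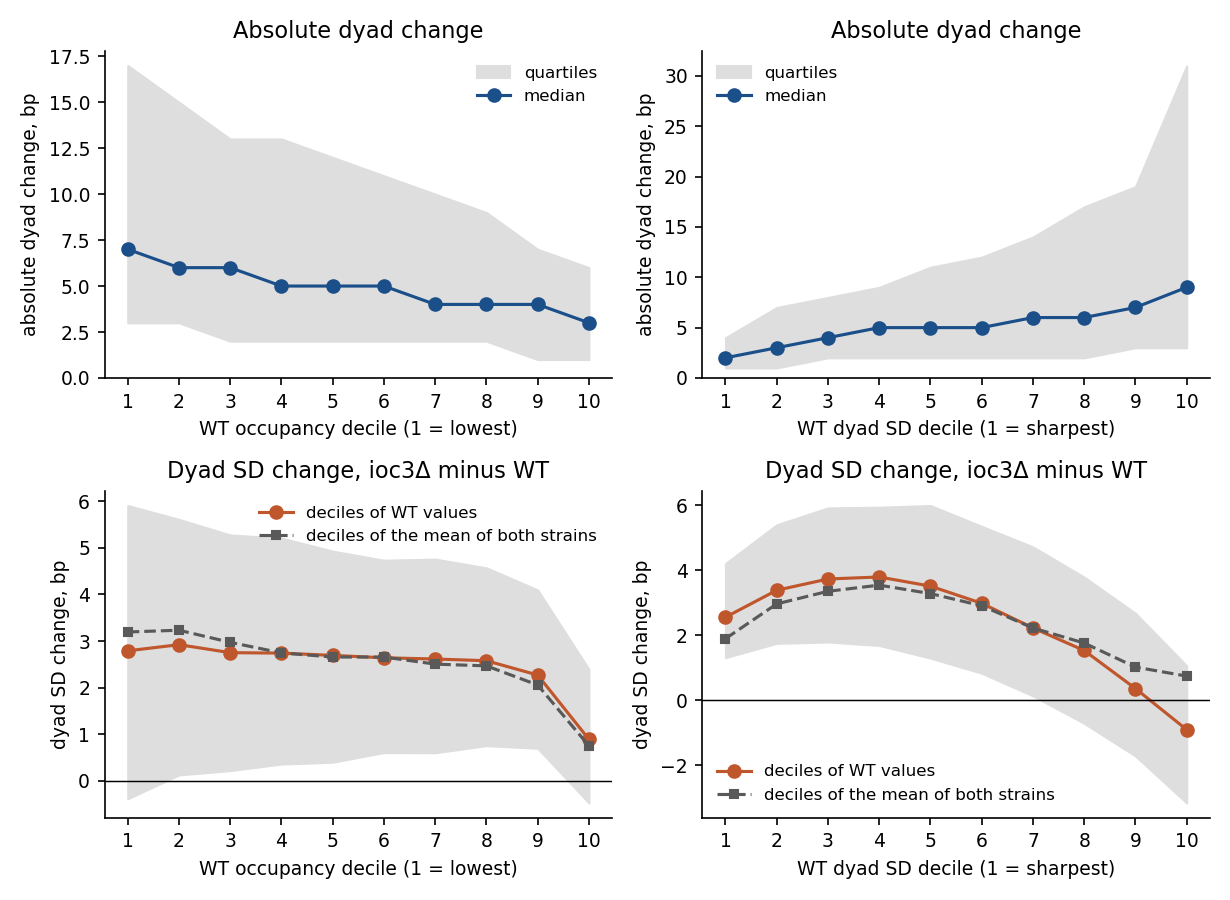
Absolute dyad change (top, bp) and dyad SD change (bottom, bp, ioc3Δ minus WT) by deciles of WT occupancy (left) and WT dyad SD (right); lines with circles are medians, grey areas quartiles, and dashed lines use deciles of the mean of both strains. The dyad change falls from 7 to 3 bp with occupancy and rises from 2 to 9 bp with WT SD, and the SD change peaks at 3.79 bp in the 4th decile.

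Occupancy differed between the strains mainly along base composition. The median ratio of ioc3Δ to WT was 0.892 (interquartile range 0.722 to 1.11), while the ratio of the summed occupancies was 1.18, so the direction of the unscaled ratio depends on the summary. Ratios were therefore divided by their median. The scaled ratio was 1.5 or more in 5961 calls (11.5%) and 1/1.5 or less in 5586 (10.8%). Dividing by the median places as many calls above 1 as below it, and dividing by the ratio of sums instead put 37.6% of the calls outside 1.5-fold, against 22.2%. Its median was 0.672 in the decile of calls with the lowest GC content (median 31.3% GC) and 1.60 in the highest (49.0%), and it rose in every decile between. Spearman's rho of GC content and the ratio was 0.64 over 51917 calls, between 0.60 and 0.70 within each chromosome, and 0.63 over the 46624 calls with 100 or more fragments in both. The calls share 2 merged libraries, so this is 1 comparison of libraries. What makes the ratio follow base composition was not tested.

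Because of this relation the ratio was also centred on the median of 20 bins of GC content, a choice made after the values were seen. The calls outside 1.5-fold then fell from 22.2% to 10.9%. By WT occupancy the scaled ratio was 1.05 in the lowest decile, 0.950 in the 4th, and 1.32 in the highest. Centred on GC, the same deciles gave 1.28, 1.01 and 1.00, so the excess of the highest decile was not seen within GC bins. With deciles of the mean occupancy of both strains the uncentred values rose from 0.878 to 1.44. By WT dyad SD the centred ratio was 0.928 in the sharpest decile and 1.07 in the fuzziest.

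**Figure D4:**
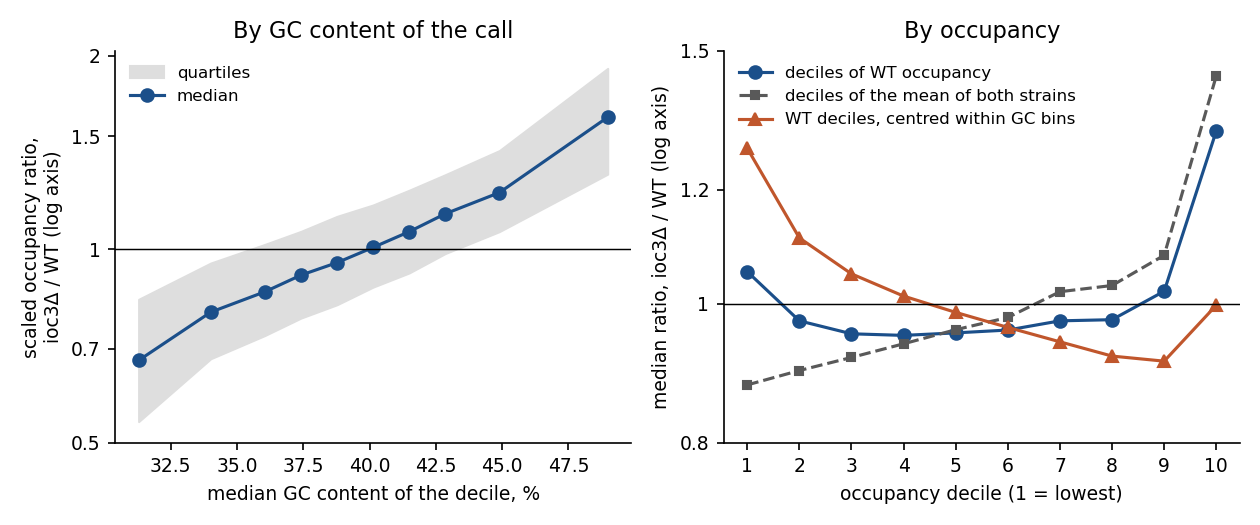
Left, scaled occupancy ratio of ioc3Δ to WT (log axis) by deciles of GC content of the 147 bp, plotted at each decile's median GC in percent, with quartiles in grey; the median rises from 0.672 to 1.60. Right, median ratio (log axis) by occupancy deciles, with deciles from WT, deciles from the mean of both strains, and the WT deciles centred within GC bins; the highest decile is at 1.32, 1.44 and 1.00.

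Calls outside coding regions numbered 4539 and moved less. Their median dyad change was 3 bp and their scaled occupancy ratio 0.795, or 0.945 within GC bins. Between divergent genes, where promoters face away from each other, the median change was 2 bp and 12.3% of 1237 calls moved by 10 bp or more. Between convergent genes it was 6 bp and 35.3% of 975 calls. The WT dyad SD was 17.9 bp in the first and 28.8 bp in the second. The convergent regions also had the lowest ratio, 0.637 at 31.3% GC, and 0.889 within GC bins.

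Whole chromosomes differed little. The dyad change had a median of 4 or 5 bp on all 16 chromosomes, and the dyad SD change ran from 2.05 bp on chromosome I to 2.52 bp on chromosome XIII. The chromosome medians of the scaled ratio spanned 0.982 on chromosome X to 1.07 on chromosome I, a range of 0.0838 that was 0.0335 within GC bins. The chromosome ends stood apart. Within 1000 bp of an end, 71 calls had a median dyad change of 2 bp, and 15.5% moved by 10 bp or more. Their dyad SD was wider in 50.7%, against 77.3% of all calls, with a median change of 0.0027 bp. Their scaled ratio was 1.19 and, within GC bins, 0.920. Between 10 and 20 kb from an end, 877 calls had a median dyad change of 6 bp, and 34.5% moved by 10 bp or more. The 100 calls within 1000 bp of a centromere had a ratio of 0.905, or 0.965 within GC bins, and their median dyad change was 4 bp. No paired call lay within 100 bp of a centromere. Many calls near the ends lie in repeated sequence, where reads can be shared between copies.

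In windows of 10 kb with at least 20 calls the median scaled ratio ran from 0.748 to 1.63 over 1184 windows, with quartiles of 0.934 and 1.08. The 3 highest windows lay at 190001 to 200000 of chromosome I (1.63, 49.7% GC), 50001 to 60000 of chromosome III (1.57, 46.3% GC) and 290001 to 300000 of chromosome X (1.53, 44.2% GC). The 3 lowest lay at 60001 to 70000 of chromosome VII (0.748), 380001 to 390000 of chromosome XIV (0.756) and 540001 to 550000 of chromosome XVI (0.779), at 36.7 to 37.4% GC. Within GC bins these 6 windows spanned 0.879 to 1.13. The window with the largest dyad change, named after the values were seen, lay at 650001 to 660000 of chromosome XI, with a median of 21 bp over 23 calls in NFT1, YKR104W and VBA5.

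**Figure D5:**
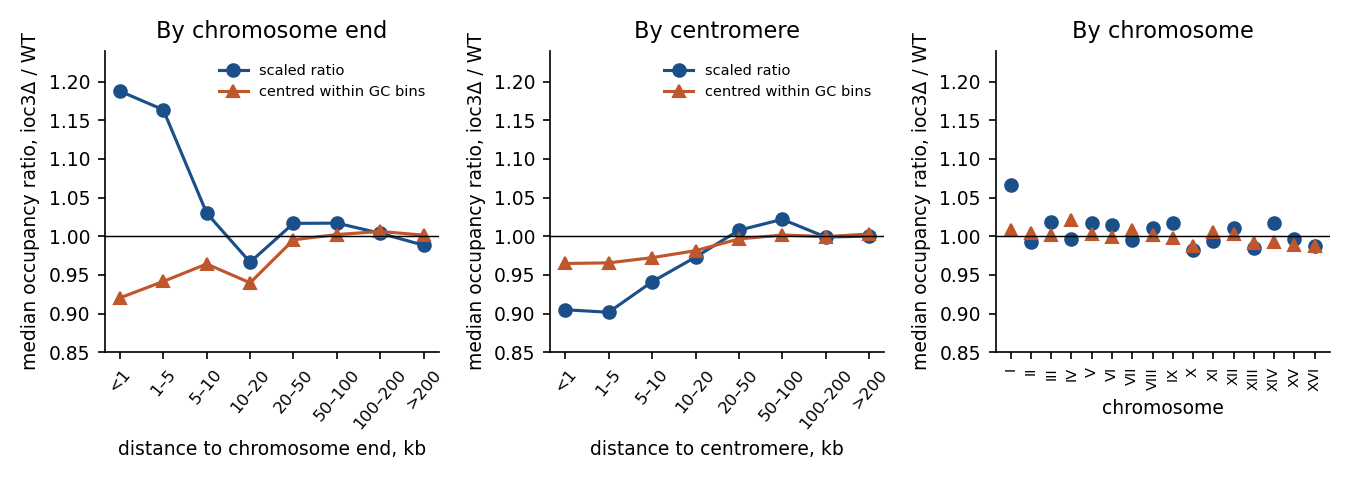
Median occupancy ratio of ioc3Δ to WT (y axis) by distance to the chromosome end in kb (left), by distance to the centromere in kb (middle) and by chromosome (right); blue circles are scaled ratios, orange triangles are centred within GC bins. The calls nearest the ends are at 1.19 before and 0.920 after centring, and chromosomes span 0.982 to 1.07 before centring.

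For single genes, calls with 100 or more fragments in both strains were used, and 3933 genes had at least 5 of them. The gene medians along transcription were downstream in 2202 genes, upstream in 1268 and 0 in 463. The dyad SD rose in 3631 genes (92.3%) by its median. In 525 genes the median absolute change was 10 bp or more, and in 171 genes no call moved by more than 5 bp. Genes named below stand at the ends of these rankings, so their values are descriptions of extremes.

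Genes with the largest median dyad change were YJR149W (56 bp), RME1 (50 bp), YDR541C (46 bp) and BIO3 (43 bp), each over 5 calls. RME1 encodes a repressor of meiosis. Its 5 dyads from left to right lay at 582991, 583175, 583362, 583510 and 583850 of chromosome VII in WT and at 582997, 583152, 583300, 583460 and 583793 in ioc3Δ. RME1 is on the minus strand, so 4 of the 5 moved downstream, by 23 to 62 bp. All 5 were narrower in ioc3Δ and had been fuzzy, with WT SDs of 33.6 to 40.7 bp. BIO3, a gene of biotin synthesis, moved in both directions, with 4 of 5 calls downstream. The largest downstream medians after RME1 were in YFH7 (41 bp), YHC3 (31 bp) and YPR127W (31 bp). The largest upstream medians were in YJR149W (−56 bp), NIT2 (−26 bp), HXT13 (−24 bp) and ASI3 (−23 bp).

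Other genes kept their dyads. The median absolute change was 0 in 8 genes, of which PPH22, YDR124W, ACT1 and PRY2 are named by the rule. ACT1 encodes actin. Its dyads at 53891, 54039, 54263 and 54411 of chromosome VI were identical in both strains, and the call nearest the start codon, at 54649 in WT, lay at 54652. Pairs of these calls were 148 bp apart, at the limit of the calling. PPH22 encodes a catalytic subunit of protein phosphatase 2A, and the largest change among its 7 calls was 26 bp.

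Widening of the dyad SD was largest in PCL9 (median 10.7 bp), JEN1 (9.44 bp), RTC2 (9.34 bp) and YNL092W (9.23 bp). PCL9 encodes a cyclin of the Pho85 kinase, and its SDs went from 21.3, 23.4, 22.9, 20.7 and 24.5 bp to 32.5, 34.1, 35.0, 25.9 and 28.3 bp while no dyad moved by more than 4 bp. JEN1, the lactate permease gene, widened in all 11 calls, with dyad changes of 1 to 17 bp. In RTC2 the SD of the call at 536969 of chromosome II went from 17.1 to 34.6 bp, and its occupancy went from 102 to 50.6. The largest narrowing was in AIM25 (−5.65 bp, all 6 calls narrower), LEU2 (−5.36 bp), YNL018C (−4.20 bp) and YNL034W (−4.02 bp). YNL018C and YNL034W resemble each other, so their reads could be split between them.

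The scaled occupancy ratio was highest in LEU2 (4.07), YFR018C (2.12), PTK1 (2.10) and AAC1 (2.10). LEU2 encodes an enzyme of leucine synthesis and is 1 of the 3 genes that go against the labelled background. Its 6 calls had occupancies of 56.2 to 303 in WT and 228 to 899 in ioc3Δ, and each ratio was 3.21 or more. Within GC bins its ratio was 3.76, while YFR018C (51.7% GC) fell to 1.19, PTK1 (53.7% GC) to 1.18 and AAC1 (51.0% GC), which encodes a mitochondrial ADP/ATP carrier, to 1.40. The ratio was lowest in PRM6 (0.480), NGL1 (0.546), GAL7 (0.563) and YKU70 (0.564), at 34.0 to 37.4% GC, or 0.615, 0.654, 0.645 and 0.724 within GC bins. GAL7 encodes an enzyme of galactose use and YKU70 a subunit of the Ku complex that binds DNA ends. Over all 3933 genes, 200 had a ratio of 1.5 or more and 19 of 1/1.5 or less, against 8 and 8 within GC bins.

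Spacing inside genes, over 3534 genes with at least 4 spacings, lengthened most in BUD7 (median 44.5 bp), TAT1 (32 bp), SPS1 (31.5 bp) and SWE1 (30 bp). SWE1 encodes a kinase that holds back the cell cycle and TAT1 an amino acid permease. In BUD7 spacings of 172, 177, 183 and 148 bp in WT became 223, 239, 230 and 190 bp, while 3 longer gaps inside the gene, of 291, 308 and 325 bp in WT, became 226, 217 and 270 bp. Gaps over 250 bp in WT do not enter these medians. Such gaps also shortened in TAT1 (362 to 293 bp), SPS1 (284 to 264 and 316 to 181 bp) and SWE1 (299 to 169 bp). The medians are therefore not a lengthening of the whole array. Spacing shortened most in DSE1 (−19 bp), ROF1 (−17.5 bp), MDM31 (−17 bp) and SSA2 (−16 bp). These medians too leave out compensating changes. In ROF1 a spacing of 148 bp became 239 bp. Its first dyad lay 4 bp and its last 6 bp farther downstream, so its whole array did not shorten. A spacing in MDM31 went from 180 to 246 bp. The gaps over 250 bp in SSA2 went from 255 to 320, 328 to 291 and 302 to 294 bp. SSA2 encodes an Hsp70 chaperone with a near-identical copy in SSA1, and its reads could be shared. The gene medians were longer in 1429 genes and shorter in 1387.

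The 6 gene lists were described by their calls in coding regions, beside all 47033 such calls, of which 29.2% moved by 10 bp or more. Genes of ISWI and CHD1 remodelers, without IOC3, had a median dyad change of 6 bp, and 30 of 108 calls (27.8%) moved by 10 bp or more. ISW2, the catalytic subunit of another ISWI complex, had a median of 10 bp with 10 of 17 calls, and ISW1 itself 3.5 bp with 2 of 18. In SWR1 and NuA4 subunits, which exchange H2A.Z and acetylate histones, 74 of 240 calls (30.8%) moved by that much, and EAF3 had a median of 20.5 bp over 6 calls. In the 11 histone genes it was 5 of 26 calls (19.2%), 2 of them in HTB1, which encodes histone H2B. Calls moved in 62 of 183 cases (33.9%) in heat shock chaperones. The largest median among them was 39 bp in HSP12, which had only 2 calls. HSP42, a small heat shock protein, had a median of 26.5 bp with 5 of 6 calls. Glycolysis genes had 38 of 119 calls (31.9%), with 2 of 3 in GPM1, the phosphoglycerate mutase gene. Cytosolic ribosomal protein genes had 148 of 576 calls (25.7%), and the largest median among them was 67 bp over 3 calls in RPL39.

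Occupancy and fuzziness of the lists were described in the same way. The scaled ratio was 1.40 in glycolysis genes at 45.6% GC, 1.25 in histone genes at 42.2% and 1.22 in ribosomal protein genes at 40.1%, against 1.02 over all coding regions at 40.1%. Within GC bins these were 1.09, 1.03, 1.19 and 1.00. Over all coding calls the ratio was 1.5 or more in 5655 of 47033 (12.0%). It was in 46 of 119 calls of glycolysis genes (38.7%), 120 of 576 of ribosomal protein genes (20.8%), 43 of 240 of SWR1 and NuA4 genes (17.9%), 31 of 183 of chaperone genes (16.9%), 4 of 26 of histone genes (15.4%) and 15 of 108 of remodeler genes (13.9%). The dyad SD was wider in 59.7% of the glycolysis calls, 70.7% of the ribosomal protein calls and 71.7% of the SWR1 and NuA4 calls, against 77.1% of all coding calls. It was wider in 75.9% of the remodeler, 75.4% of the chaperone and 80.8% of the histone calls.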

How the data were processed

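Nucleosomes of WT and ioc3Δ were mapped by MNase-seq of formaldehyde-fixed spheroplasts from which DNA of mononucleosome size was purified from gels. Per the labels and the study's methods, the authors aligned paired reads to sacCer3 with Bowtie2 2.0 and removed ribosomal RNA reads. They then normalized the density of fragment midpoints to the genome mean, merged 3 libraries per strain, called nucleosomes greedily and paired calls that overlap by at least 73 bp. The deposited calls nevertheless still included 12 pairs in the ribosomal RNA locus. The deposited occupancy is a signal relative to mean coverage. All other deposited columns are positions and SDs in bp. The files were used as 1 pooled table per strain, and 0 columns of single samples were left out.

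Repeated pairs and calls in the ribosomal RNA locus were dropped, and changes were computed as ioc3Δ minus WT with Python 3.11.15, numpy 2.4.6, pandas 2.3.3 and scipy 1.17.1 (figures with matplotlib 3.10.9). Chromosome lengths of the RefSeq assembly R64 hold all dyads. Gene models are coding regions without untranslated parts. Neighbours were calls up to 250 bp apart in WT. The occupancy ratio was divided by its median. The calculation was tested on simulated calls.

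Named genes had at least 5 calls with 100 or more fragments in both strains in 1 coding region and stood in the first 4 at either end of a ranking (dyad change, directed change, dyad SD change, ratio, spacing change with at least 4 spacings). Ties went to the gene with more calls, then by systematic name. Windows were the 3 highest and the 3 lowest. The analysed calls, measures and gene lists were chosen with earlier results of these data known. Alternatives covered filters on occupancy, fuzziness, distance and position, means in place of medians, repeated rows and GC content.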

Additional observations from a re-analysis of the deposited data

Results flagged for a closer look

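The 12 paired calls of the ribosomal RNA locus lie outside the comparison because the repeats share reads. The study's methods state that reads of this locus were filtered out, yet these calls were present. These 12 calls held 8.09% of the summed occupancy of the WT table and 5.39% of that of ioc3Δ, against the limit of 6.28e-06% that a count of 0 (3 counts) allows in WT. The value drew attention as a signal in data that no comparison used, and it has no replicate.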

How the results depend on the processing

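No paired analysis was possible because each strain has a single merged column, and for the same reason no replicate could be left out. Of 128 alternative values for 18 results, 84 stayed within the 95% interval of the main value, or within 1.5 times for shares. A further 42 moved beyond it and 2 changed direction. The interval is binomial for a median and comes from Fisher's transform for r. For decile comparisons and the chromosome range it combines the intervals of 2 medians. Intervals treat calls as independent and are narrow. The ratio of summed occupancies was 1.18, above 1, and within GC bins the ratio of the highest to the lowest WT occupancy decile was 0.778, against 1.25. GC bins also gave 10.9% of calls outside 1.5-fold and a chromosome range of 0.0335, and dividing by the ratio of sums gave 37.6%. Keeping calls in the upper 75% of occupancy gave a median dyad change of 4 bp, an SD change of 2.19 bp, an occupancy ratio of 0.919, a decile ratio of 1.41, a GC decile ratio of 2.24 (main 2.39), a fuzziest-minus-sharpest difference of 4 bp in dyad change (main 7) and −3.10 bp in SD change (main −3.46), and an adjacent r of 0.45. Calls with a WT SD up to the median gave 4 bp, 3.35 bp, 0.862, 1.60 and 2.67 for the first 5 of these, an r of 0.52, and 18.3% of dyads and 20.0% of spacings changed by 10 bp or more. With the mean dyad as the position the change was 6 bp, its fuzziness difference 9 bp, r 0.37, and the medians in the first and last 495 bp of genes 4 and −4 bp (main 3 and −3). With pairs up to 37 bp apart the change was 4 bp, the fuzziness differences 4 and −3.25 bp and r 0.40. Means were 9.76 bp for dyad change, 1.56 bp for spacing, 2.50 bp for SD, 0.772 bp along transcription, and 4.48 and −4.59 bp in the first and last 495 bp. Deciles of both strains' mean gave 1.64 for the occupancy deciles and 8 and −1.15 bp for the fuzziness differences. Repeated rows gave an r of 0.43. Calls with free neighbours gave 4 bp, a spacing change of 1 bp and an r of 0.36. With fragments as observations 47.1% of calls passed the rule of the methods. Leaving out chromosome XII or the 20 kb at chromosome ends moved none of the 14 results recomputed for each beyond its interval. Depth limits single calls: a change near the counting SE cannot be read from 1 call. For the mean dyad this SE had a median of 2.22 bp and an upper quartile of 3.15 bp. For the peak dyad, used for most changes above, it was not measured.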

Other observations

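Transposons and other repeated or specialised regions are not described above. The 1263 calls in Ty elements, the retrotransposons of yeast, had a median dyad change of 3 bp, and 19.5% moved by 10 bp or more. Their dyad SD hardly differed, 34.4 bp in WT and 34.5 bp in ioc3Δ, with a median change of 0.142 bp, and 52.5% were wider. Their median occupancy was 257 in WT and 227 in ioc3Δ, far above the 58.3 of all WT calls, and reads of the copies are shared. The 482 calls within 500 bp of a tRNA gene had a median dyad change of 4 bp, a widening of 2.58 bp and a ratio of 0.894, or 0.996 within GC bins. The 165 calls in replication origins had a median dyad change of 5 bp and a ratio of 0.824, or 0.956 within GC bins.

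Runs of A or T, which stiffen DNA, were compared within deciles of GC content. A run of 7 A or 7 T was found in 8.45% of all calls and in 8.34% of those with an identical dyad, without regard to GC content. In the decile with the lowest GC content (medians of 30.6% with such a run and 31.3% without) the median dyad change was 6 bp with such a run (1234 calls) and 6 bp without (3958 calls), and the SD widened by 3.31 and 3.30 bp. In the second decile it widened by 2.49 and 3.07 bp. In the highest decile the dyad medians were 2 bp (92 calls) and 3 bp (5100 calls), and the SD widened by 0.473 and 0.987 bp. Over the 10 deciles the median dyad change was smaller with a run in 4, larger in 0 and equal in the others. The SD change was larger with a run in 5 and smaller in 5. The scaled occupancy ratio was higher with a run in 9 of 10 deciles, for example 0.845 against 0.792 in the second, and lower in the first (0.656 against 0.676). GC content within a decile was not matched further, and no test was made.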
